A study of Mus musculus with 25 samples.

Results

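The immediate early genes that neuronal activity induces were examined in mouse spinal cord cholinergic neurons. They were taken by name as 10 genes, *Fos*, *Fosb*, *Junb*, *Egr1*, *Egr3*, *Arc*, *Npas4*, *Nr4a1*, *Ier2* and *Dusp1*, out of 50559 in the count table, and all 10 were detected in each of the 24 immunoprecipitate (IP) libraries and in the pooled input. Messenger RNA on cholinergic neuron ribosomes was pulled down from whole spinal cord through a hemagglutinin (HA) tag. The comparisons addressed whether transcripts differed between the light and the dark period and with the loss of the clock gene *Bmal1* in these neurons. *ChAT-BKO* mice were *ChAT-Cre;RiboTag fx/+;Bmal1 fx/fx*, labelled Bmal1 knockout, and controls were *ChAT-Cre;RiboTag fx/+*, labelled wild-type. Both were C57BL/6J males of 6 mo, and each genotype was collected at Zeitgeber time (ZT) 8, in the light or rest period, and at ZT20, in the dark or active period. Each of the 4 groups held 6 mice, with one spinal cord per library. All 24 mice carried the Cre driver and the tagged ribosome allele, the Cre was driven from the *ChAT* locus, and controls had no floxed *Bmal1* allele. The pooled input was 1 library of whole spinal cord RNA from both genotypes before the IP.

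Immediate early genes are transcribed within minutes of a stimulus without new protein synthesis, as calcium entry and kinase cascades activate factors already bound to their promoters, among them CREB and the serum response factor. Their transcripts are short-lived, so their level in neurons is widely used as a trace of recent firing. *Fos*, *Fosb* and *Junb* encode subunits of the AP-1 transcription factor, *Egr1* and *Egr3* zinc finger factors, *Npas4* a bHLH-PAS factor selective for calcium entry, and *Nr4a1* an orphan nuclear receptor. *Arc* encodes a synaptic protein that takes part in the removal of AMPA receptors, *Ier2* a nuclear protein, and *Dusp1* a phosphatase that switches off MAP kinases. All 10 are protein-coding genes, and on GRCm38 *Fos* lies at chr12:85473890-85477273 on the plus strand, *Fosb* at chr7:19302696-19310051 and *Junb* at chr8:84974484-84978718 on the minus strand. *Arc* lies at chr15:74669083-74672570, *Npas4* at chr19:4984355-4990316, *Ier2* at chr8:84661331-84662852 and *Dusp1* at chr17:26505590-26562128, all on the minus strand. *Egr3* at chr14:70077203-70082614 and *Nr4a1* at chr15:101254269-101274795 are on the plus strand, as is *Egr1*.

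The cyclic AMP response element (CRE) bound by CREB reads TGACGTCA, and its core TGACG was searched on both strands of the promoters together with other motifs. RefSeq promoter windows on GRCm38.p6 were found for 6 of the 10 genes, namely *Fos*, *Fosb*, *Junb*, *Nr4a1*, *Dusp1* and *Npas4*. Each was 240 bases long and ended 11 bases before the RefSeq start, from which positions are given. For *Nr4a1*, *Dusp1* (chr17:26508483-26508722) and *Npas4* (chr19:4989982-4990221) the window lies inside the gene span listed above, so it is not upstream of that whole span. The core was in all 6 of these windows and in 16.9% of the 32851 promoter windows of the genome. The full CRE was in 1 of the 6 (*Dusp1*) and in 1.44% of all windows, and it contains the core. The E-box CACGTG, which BMAL1 and CLOCK bind, was in 1 of the 6 (*Dusp1*) and in 5.69% of all windows. The AP-1 site TGANTCA was in 0 of the 6 against 6.58%, the CArG box of the serum response factor in 0 against 1.44%, and the EGR site GCGNGGGCG in 2 (*Fosb* and *Nr4a1*) against 4.39%. The TATA box TATAAA was in 1 of the 6 (*Fos*) against 12.1%. These matches describe letters in the windows and were not tested for binding, and an absent match says only that the letters are not in the window. The windows of the AP-1 genes and of *Nr4a1* are given 5′ to 3′ along the gene's strand, since the cores can be seen in them at different distances from the start. Capitals mark the CRE core, as TGACG or as CGTCA where it lies on the other strand, and the TATA box of *Fos*.
Fos, chr12:85473640-85473879, plus strand: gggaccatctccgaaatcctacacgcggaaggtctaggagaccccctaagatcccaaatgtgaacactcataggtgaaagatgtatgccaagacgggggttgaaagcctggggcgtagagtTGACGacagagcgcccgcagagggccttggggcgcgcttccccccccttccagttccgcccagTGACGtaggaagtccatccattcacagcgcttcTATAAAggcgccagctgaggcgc
Fosb, chr7:19310056-19310295, minus strand: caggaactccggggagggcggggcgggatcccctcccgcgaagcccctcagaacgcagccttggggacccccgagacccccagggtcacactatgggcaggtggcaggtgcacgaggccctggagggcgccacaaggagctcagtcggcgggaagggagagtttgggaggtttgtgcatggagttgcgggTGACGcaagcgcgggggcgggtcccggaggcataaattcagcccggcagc
Junb, chr8:84978759-84978998, minus strand: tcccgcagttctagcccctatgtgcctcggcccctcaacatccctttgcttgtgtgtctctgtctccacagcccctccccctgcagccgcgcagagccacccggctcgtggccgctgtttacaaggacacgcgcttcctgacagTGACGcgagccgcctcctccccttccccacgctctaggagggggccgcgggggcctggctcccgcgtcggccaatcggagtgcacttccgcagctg
Nr4a1, chr15:101266596-101266835, plus strand: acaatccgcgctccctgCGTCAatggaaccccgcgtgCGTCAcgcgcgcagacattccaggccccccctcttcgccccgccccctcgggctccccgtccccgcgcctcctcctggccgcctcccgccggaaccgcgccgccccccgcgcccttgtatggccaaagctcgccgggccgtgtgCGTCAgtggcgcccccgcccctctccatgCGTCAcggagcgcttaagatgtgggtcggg
*Fos* had cores at -129 to -125 and at -66 to -62 from its start, with the TATA box at -33 to -28. *Fosb* had 1 at -60 to -56, *Junb* 1 at -106 to -102, and *Nr4a1* 4, the nearest at -40 to -36. The *Dusp1* and *Npas4* windows overlap an annotated exon and are not printed.

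Total counts per IP library ran from 4.04 to 31.7 M, and the input had 7.40 M. A count of 0 would allow up to 0.0947 CPM in the deepest IP library and 0.743 CPM in the shallowest, which covers counting error only. All 7 cholinergic neuron markers (*Chat*, *Slc18a3*, *Slc5a7*, *Ache*, *Isl1*, *Mnx1* and *Prph*) were above the input, with a median log2 ratio of 2.76. The oligodendrocyte, astrocyte, microglia and vascular lists had medians from -3.97 to -3.20. Other neurons were less depleted than these, with medians of -2.42 for the excitatory list (0 of 5 above the input) and -1.27 for the inhibitory list (1 of 5). The fibroblast, skeletal muscle and blood lists had medians of -3.58, -2.74 and -2.42. *Arntl*, the file's symbol for *Bmal1*, was lower in *ChAT-BKO* than in control libraries by edgeR with Benjamini-Hochberg adjustment, and the log2 fold changes were -1.64 (adjusted p = 1.56e-05) in the light period and -2.08 (adjusted p = 1.98e-07) in the dark period. At each time the highest of the 6 *ChAT-BKO* libraries was under the lowest of the 6 controls, as the labels have it. Counting error did not account for the spread of any of the 60 pairs of replicates (chi-square over its degrees of freedom, 1.8 to 25.4). Each library is tissue of many cells, so fewer cells with a transcript and less transcript per cell cannot be told apart.

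Levels are normalised read counts, as CPM (read counts scaled to the TMM-normalized library size), and comparisons between genes use CPM per kb of exon. The length is the union of all annotated exons of a gene, at 1522 bases for *Ier2*, 3311 for *Dusp1* and 6243 for *Fosb*. Annotated exons that these neurons do not use would make it too long, so the order between genes is uncertain to that extent. Over all 24 IP libraries *Junb* had the highest mean per length, at 13.3 ± 1.64 CPM per kb (SD, n = 24), and *Fos* the next, at 10.8 ± 3.78. This order differed between groups, since *Junb* was above *Fos* in 6 of 6 libraries in each of 3 groups but in 1 of 6 of *ChAT-BKO* mice at ZT20. There *Fos* was at 15.8 ± 2.5 and *Junb* at 13.7 ± 1.05 CPM per kb (SD, n = 6). *Ier2* was at 7.44 ± 1.3 CPM per kb, *Dusp1* at 6.31 ± 1.46, *Arc* at 3.25 ± 0.676, *Egr1* at 2.55 ± 0.562 and *Nr4a1* at 1.71 ± 0.578. *Ier2* was above *Dusp1* in 19 of 24 libraries and *Arc* above *Egr1* in 19 of 24, so the spreads of these neighbours overlapped. *Fosb* at 0.456 ± 0.118 CPM per kb, *Npas4* at 0.282 ± 0.0974 and *Egr3* at 0.0897 ± 0.0531 were the lowest. *Dusp1* was above *Arc*, *Egr1* above *Nr4a1*, *Nr4a1* above *Fosb* and *Fosb* above *Npas4* in 24 of 24 libraries. In counts, *Fos* had 63 to 802 per library and *Junb* 111 to 926, against 4 to 39 for *Npas4* and 1 to 13 for *Egr3*. The values of these last genes therefore carry the largest counting error of the 10.

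*Fos* was the only one of the 10 genes called in any of the 7 comparisons. Its calls were for night against day in *ChAT-BKO* neurons and averaged over the genotypes, not in controls. By its medians *Fos* was higher at night in both genotypes. In controls its lowest, median and highest levels were 14.4, 18.9 and 25.4 CPM at ZT8 and 20.1, 25.6 and 33.5 CPM at ZT20. In *ChAT-BKO* neurons they were 9.11, 20.6 and 25.7 CPM at ZT8 and 29.7, 35.8 and 45.8 CPM at ZT20. The *ChAT-BKO* groups did not overlap, since every ZT20 library was above every ZT8 library, whereas 3 of 6 control libraries at ZT20 were above all controls at ZT8.

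**Figure D1:**
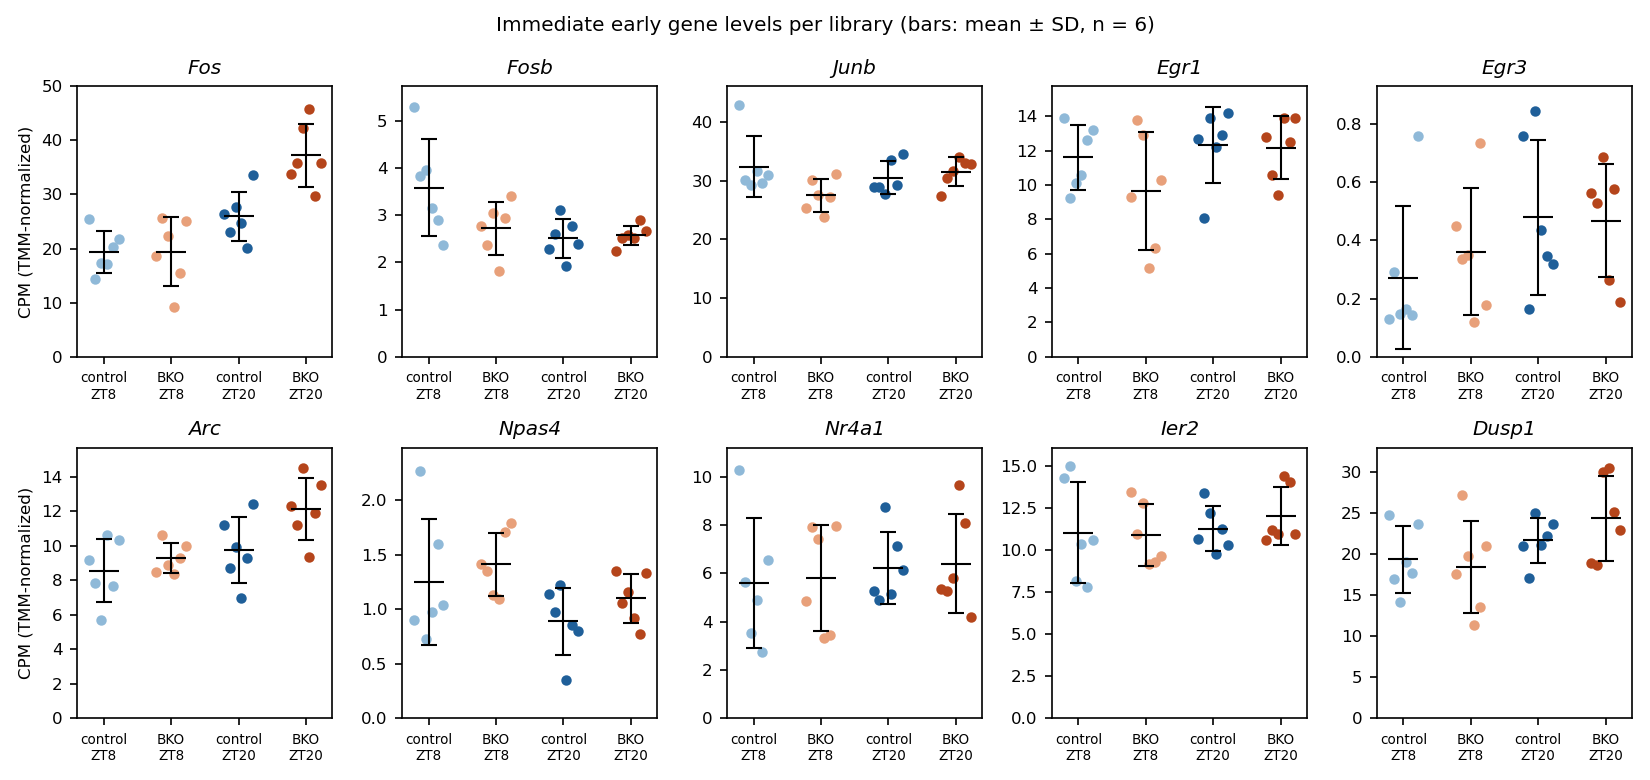
Levels of the 10 immediate early genes in CPM (TMM-normalized) on the vertical axes, with 1 point per IP library in 4 groups by genotype and time, and bars for the mean ± SD (n = 6). The *Fos* points of *ChAT-BKO* mice at ZT20 sit between 29.7 and 45.8 CPM, above all 6 of *ChAT-BKO* mice at ZT8, whereas in the other 9 panels the groups overlap.

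Night and day were first compared within each genotype on its 12 libraries. In *ChAT-BKO* neurons *Fos* went from 19.4 ± 6.37 to 37.2 ± 5.89 CPM (SD, n = 6 each), a fold of 1.9 (log2 0.93, SE 0.18, lower 95% bound 0.55, adjusted p = 0.0267 by edgeR). This was 1 of 10 genes called, against 0.285% of the 21738 genes tested, and 1 of 10 whose groups did not overlap, against 1.18%. In controls *Fos* went from 19.4 ± 3.93 to 25.9 ± 4.54 CPM, a log2 fold change of 0.43 (SE 0.13, 95% interval 0.16 to 0.70, unadjusted p = 0.00371 and adjusted p = 0.332 by edgeR). In controls 0 of the 10 genes were called by edgeR, against 0.115% of all genes, by DESeq2, against 0.584%, or by limma voom, against 0.156%, and 0 had groups that did not overlap, against 0.938%. An unadjusted p under 0.05 was found for 2 of the 10 in controls (*Fos* and *Fosb*), against 8.25%, and for 4 in *ChAT-BKO* neurons (*Fos*, *Junb*, *Arc* and *Dusp1*), against 9.42%. The call in *ChAT-BKO* neurons was lost in 6 of 12 fits that left out 1 library, with adjusted p between 0.00632 and 0.0762, namely without replicate 1, 3 or 5 at ZT8 (0.0754, 0.0507 and 0.0762) or replicate 2, 4 or 6 at ZT20 (0.0532, 0.0521 and 0.0581). The log2 fold change stayed between 0.76 and 1.03 in these 12 fits.

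Averaged over the genotypes in a fit of all 24 libraries, the night-to-day log2 fold change of *Fos* was 0.68 (SE 0.12, 95% interval 0.43 to 0.93, adjusted p = 0.00168 by edgeR), 1.6-fold. It ranked 84th by p among 21738 genes, and 570 genes (2.62%) were called in this comparison. *Fos* stayed called in all 24 fits that left out 1 library, with log2 fold changes from 0.59 to 0.73. Of the 10 genes, 6 had an unadjusted p under 0.05 in this comparison (*Fos*, *Fosb*, *Egr3*, *Arc*, *Npas4* and *Dusp1*), against 14.3% of all genes, and they did not share a direction.

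Among the other AP-1 genes, *Fosb* was higher by day in its means but not called. Its lowest, median and highest levels in controls were 2.37, 3.49 and 5.29 CPM at ZT8 and 1.92, 2.5 and 3.1 CPM at ZT20. In *ChAT-BKO* neurons these were 1.82, 2.85 and 3.41 CPM at ZT8 and 2.25, 2.55 and 2.89 CPM at ZT20. The groups overlapped in both genotypes, and the averaged log2 fold change was -0.29 (SE 0.13, 95% interval -0.55 to -0.03, adjusted p = 0.28 by edgeR), opposite in sign to *Fos*. *Junb* was nearly level only on average, with medians of 30.6 and 29.1 CPM in controls and 27.4 and 32.3 CPM at ZT8 and ZT20 in *ChAT-BKO* neurons. Its log2 fold change was -0.08 in controls (95% interval -0.27 to 0.11, adjusted p = 0.88 by edgeR). In *ChAT-BKO* neurons *Junb* had one of 0.18 (0.02 to 0.35, unadjusted p = 0.0308, adjusted p = 0.461 by edgeR), with 4 of 6 night libraries above every day library. Its ranges overlapped in both genotypes, from 29.3 to 43 CPM at ZT8 and from 27.8 to 34.6 CPM at ZT20 in controls, and from 23.8 to 31.2 and from 27.4 to 34.1 CPM in *ChAT-BKO* neurons. The averaged log2 fold change of *Junb* was 0.05 (95% interval -0.08 to 0.18, adjusted p = 0.806 by edgeR). *Junb* overlaps *Prdx2* on the opposite strand, and the strand setting of the counting was not given in the sources used here, so its level is uncertain to that extent.

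*Arc*, the synaptic effector, had the second-smallest p of the 10 genes, after *Fos*, for night against day in *ChAT-BKO* neurons and averaged over the genotypes, but not in controls. In controls its lowest, median and highest levels were 5.71, 8.51 and 10.6 CPM at ZT8 and 6.99, 9.61 and 12.4 CPM at ZT20. In *ChAT-BKO* neurons they were 8.38, 9.09 and 10.6 CPM at ZT8 and 9.37, 12.1 and 14.5 CPM at ZT20. In *ChAT-BKO* mice 5 of 6 night libraries were above every day library, and in controls 2 of 6 were. The log2 fold change was 0.40 (SE 0.11, unadjusted p = 0.002, adjusted p = 0.186) in *ChAT-BKO* neurons and 0.16 (SE 0.15, adjusted p = 0.838) in controls by edgeR. The average was 0.28 (SE 0.09, unadjusted p = 0.00616, adjusted p = 0.125 by edgeR), so *Arc* did not pass the threshold.

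*Npas4* had the second negative average, with a log2 fold change of -0.42 (SE 0.19, 95% interval -0.81 to -0.03, adjusted p = 0.301 by edgeR). Its medians were 1.01 CPM at ZT8 and 0.915 CPM at ZT20 in controls and 1.38 and 1.11 CPM in *ChAT-BKO* neurons, with ranges that overlapped. *Egr3* had the widest interval, with an averaged log2 fold change of 0.70 (SE 0.33, 95% interval 0.02 to 1.37, adjusted p = 0.327 by edgeR). Its medians were 0.155 and 0.392 CPM in controls and 0.343 and 0.546 CPM at ZT8 and ZT20 in *ChAT-BKO* neurons. At 1 to 13 counts per library these *Egr3* medians lie at or near the level that 3 counts give.

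The remaining genes were not called either. *Dusp1*, the MAP kinase phosphatase, had medians of 18.3 and 21.6 CPM in controls and 18.6 and 24 CPM at ZT8 and ZT20 in *ChAT-BKO* neurons. Its averaged log2 fold change was 0.27 (SE 0.12, 95% interval 0.03 to 0.50, adjusted p = 0.264 by edgeR). It overlaps *Ergic1* on the opposite strand, with the same uncertainty as *Junb*. *Egr1* had an averaged log2 fold change of 0.19 (95% interval -0.06 to 0.45), *Nr4a1* of 0.11 (-0.25 to 0.47) and *Ier2* of 0.06 (-0.14 to 0.26). Their medians at ZT8 and ZT20 were 11.6 and 12.8 CPM for *Egr1*, 5.26 and 5.7 CPM for *Nr4a1* and 10.5 and 11 CPM for *Ier2* in controls. In *ChAT-BKO* neurons they were 9.82 and 12.7 CPM for *Egr1*, 6.14 and 5.58 CPM for *Nr4a1* and 10.4 and 11.1 CPM for *Ier2*. These intervals do not show that the 3 genes were unchanged. Over the 10 genes the median averaged log2 fold change was 0.15, with 8 positive and 2 negative, against a median of 0.001 over all genes tested.

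**Figure D2:**
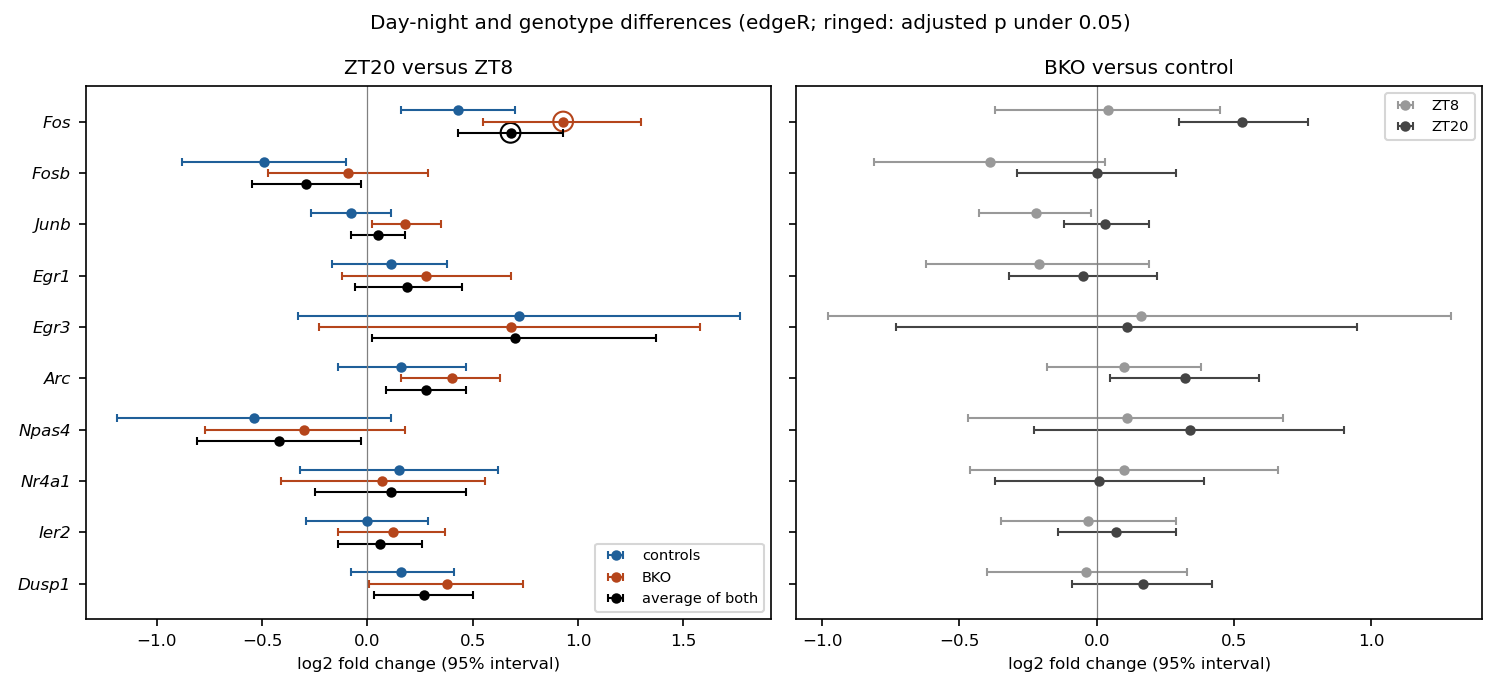
Log2 fold changes from edgeR on the horizontal axes, with 95% intervals as bars and 1 row per gene, for ZT20 against ZT8 on the left (controls, *ChAT-BKO* and their average) and for *ChAT-BKO* against control on the right (at ZT8 and at ZT20). Rings mark an adjusted p under 0.05, and they surround *Fos* for night against day in *ChAT-BKO* neurons (0.93) and averaged (0.68), and no other point.

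Genotypes were then compared at each time point. At ZT20 *Fos* was at 37.2 ± 5.89 CPM in *ChAT-BKO* neurons and at 25.9 ± 4.54 CPM in controls, and 5 of 6 *ChAT-BKO* libraries were above every control. Its log2 fold change was 0.53 (SE 0.11, 95% interval 0.30 to 0.77, unadjusted p = 1.39e-04, adjusted p = 0.0582 by edgeR), so it did not pass the threshold, while DESeq2 gave an adjusted p of 0.00726 and limma voom 0.0859. By edgeR 0 of the 10 genes were called at ZT20, against 0.23% of all genes, 0 had groups that did not overlap, against 0.506%, and 2 (*Fos* and *Arc*) had an unadjusted p under 0.05, against 6.28%. DESeq2 called 1 of the 10 (*Fos*), against 0.419% of all genes, and limma voom 0, against 0.221%. With 1 library left out in turn the adjusted p of *Fos* ran from 0.0104 to 0.171, and it was called without control replicate 6 (0.0104) and without *ChAT-BKO* replicate 5 (0.0309). At ZT20 the log2 fold change of *Arc* was 0.32 ± 0.13 (SE, adjusted p = 0.71 by edgeR), and 2 of 6 *ChAT-BKO* libraries were above all controls.

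At ZT8 *Fos* did not differ beyond its spread, at 19.4 ± 6.37 CPM in *ChAT-BKO* neurons and 19.4 ± 3.93 CPM in controls, with a log2 fold change of 0.04 (95% interval -0.37 to 0.45, adjusted p = 1 by edgeR). By edgeR 0 of the 10 genes were called at ZT8, against 0.184% of all genes, 0 had groups that did not overlap, against 0.57%, and 1 (*Junb*) had an unadjusted p under 0.05, against 4.83%. DESeq2 and limma voom called 0 as well, against 0.322% and 0.202% of all genes. *Junb* had a log2 fold change of -0.22 (SE 0.10, 95% interval -0.43 to -0.02, adjusted p = 0.995 by edgeR), with 4 of 6 *ChAT-BKO* libraries below all controls. *Fosb* had one of -0.39 (SE 0.20, adjusted p = 1 by edgeR), at 2.72 ± 0.56 CPM in *ChAT-BKO* neurons and 3.58 ± 1.03 CPM in controls.

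The difference between the genotype effects at ZT20 and ZT8, which is also the difference between the night-to-day changes of the genotypes, was 0.50 for *Fos* (SE 0.25, 95% interval -0.00 to 1.00, unadjusted p = 0.052, adjusted p = 1 by edgeR). The larger night-to-day change of *Fos* in *ChAT-BKO* neurons was therefore not shown to differ from that in controls. The night-to-day comparison in *ChAT-BKO* neurons and the genotype comparison at ZT20 share the 6 *ChAT-BKO* libraries of ZT20. By edgeR 0 of the 10 genes and 0% of all genes were called for this difference. Only *Junb* (0.27, SE 0.12, unadjusted p = 0.0375) had an unadjusted p under 0.05 among the 10, against 3.9% of all genes, and DESeq2 and limma voom also called 0 of the 10. Averaged over time points 0 of the 10 genes were called between genotypes by edgeR, against 0.653% of all genes, by DESeq2, against 1.04%, or by limma voom, against 0.81%. Of the 10, 2 (*Fos*, 0.29, and *Arc*, 0.21) had an unadjusted p under 0.05, against 7.28%.

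Transcripts of other cells moved with these comparisons. Blood markers (*Hba-a1*, *Hba-a2*, *Hbb-bs*, *Hbb-bt* and *Alas2*) were positive for night against day in 5 of 5, with a median averaged log2 fold change of 0.57, and 3 of 5 were called (*Hba-a1*, *Hbb-bs* and *Hbb-bt*). Their summed level ran from 160 to 403 CPM and from 161 to 290 CPM in controls and *ChAT-BKO* libraries at ZT8 and from 209 to 611 and from 258 to 412 CPM at ZT20. With the blood level as a covariate, the log2 fold change of *Fos* was 0.73 averaged (adjusted p = 0.0205 by edgeR), 0.85 in *ChAT-BKO* neurons (adjusted p = 0.469) and 0.55 in controls (adjusted p = 0.401). Thus the averaged call remained and the call in *ChAT-BKO* neurons did not. The loss was not particular to *Fos*, since this covariate cut the calls over all genes from 62 to 5 in *ChAT-BKO* neurons. They fell from 25 to 2 in controls and from 570 to 240 averaged. Of the vascular markers 1 of 6 was called at night (*Cldn5*, 0.73), with a list median of 0.27.

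Of 10 skeletal muscle markers, 5 (*Acta1*, *Mylpf*, *Tnnt3*, *Tnnc2* and *Atp2a1*) were called higher in *ChAT-BKO* than in control libraries at ZT20, and the list median was 2.20. Their summed level ran from 6.42 to 28.2 CPM in controls and from 4.75 to 107 CPM in *ChAT-BKO* libraries at ZT20, and none of the 10 was at 0 in all IP libraries. At ZT8 it ran from 1.68 to 111 CPM in controls and from 3.49 to 178 CPM in *ChAT-BKO* libraries. With the muscle level as a covariate, the log2 fold change of *Fos* between genotypes at ZT20 was 0.55 (adjusted p = 0.312 by edgeR), and for night against day it was 1.34 in *ChAT-BKO* neurons (adjusted p = 4.84e-04) and 0.79 averaged (adjusted p = 1.42e-04). Within groups the correlation of log2 CPM of *Fos* with the summed muscle level was -0.60 (Spearman -0.40) and with the blood level -0.09 (Spearman -0.05), over 24 libraries that share depth and processing. The cholinergic markers did not move with *Fos*, with 0 of 7 called for night against day and a median of -0.01.

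Against the pooled input, the 10 genes divided evenly. *Junb* had a log2 ratio of IP to input of 1.56 ± 0.17 (SD, n = 24 IP libraries against 1 input), *Ier2* of 1.39 ± 0.25, *Dusp1* of 0.88 ± 0.35 and *Fos* of 0.80 ± 0.53. *Fosb* was at 0.33 ± 0.32, and it turned to -0.10 when total counts replaced the TMM scaling, which lowered the ratios of all 10 genes by a like amount. *Egr3* was at -3.01 ± 0.61, *Npas4* at -1.95 ± 0.45, *Arc* at -1.48 ± 0.30, *Egr1* at -1.46 ± 0.37 and *Nr4a1* at -1.19 ± 0.49. These 5 genes were below the input in 24 of 24 IP libraries, and each library also lay under the lower bound of the input's counting interval. *Junb* and *Ier2* were above the interval's upper bound in 24 of 24 libraries, *Dusp1* in 23, *Fos* in 21 and *Fosb* in 4. In the input, *Egr1* stood at 31.2 CPM (312 counts, exact Poisson 95% interval 27.8 to 34.9) and *Arc* at 27.8 CPM (278 counts, 24.6 to 31.3). *Fos* stood at 13.9 CPM there (139 counts, 11.7 to 16.4) and *Junb* at 10.3 CPM (103 counts, 8.41 to 12.5). Over all genes tested 47.9% had a ratio above 0, and the median ratio was -0.07. No test was made, since only 1 input was measured, and its mix of time points was not given in the sources used here. How much of the IP reads of these genes came from other cells was not tested.

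**Figure D3:**
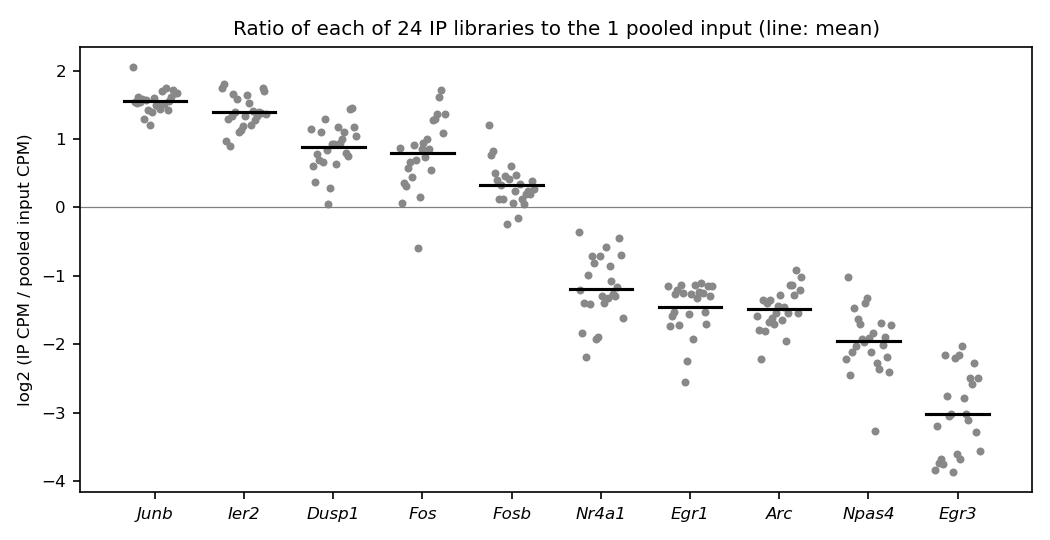
Log2 ratio of CPM in each of 24 IP libraries to the 1 pooled input on the vertical axis, by gene, with a line at each mean. *Junb*, *Ier2* and *Dusp1* lie above 0 in all libraries, and *Nr4a1*, *Egr1*, *Arc*, *Npas4* and *Egr3* below 0 in all.

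The genes also varied together among mice of the same group. After each group's mean was taken off, log2 CPM was correlated over the 24 IP libraries, which share depth, processing and tissue composition. Of the 45 pairs, 38 were positive, with a median Pearson correlation of 0.24. Over all pairs of genes with a mean of at least 5 CPM, 27347009 of 54376806 were positive and the median was 0.00. *Fosb*, *Npas4* and *Egr3* have means under 5 CPM, so the 2 sets differ in level. *Fos* and *Dusp1* had the highest, at 0.79 (Spearman 0.75), and *Nr4a1* with *Dusp1* (0.78), *Fos* with *Egr1* (0.75) and *Egr1* with *Dusp1* (0.75) came next. For each pair, the 2 libraries in which the first-named gene lay farthest from its median were then left out. These 4 correlations were then 0.68, 0.82, 0.57 and 0.64, and outlying libraries of the second gene could remain. *Junb* went with this set at 0.47 to 0.63. *Npas4* had the lowest median, 0.01 over its 9 pairs, and a correlation of -0.31 with *Junb*, and *Egr3* had a median of 0.10. Both genes had the low counts given above, at which counting error alone can pull correlations toward 0. *Arc* had correlations from -0.01 (*Fosb*) to 0.43 (*Dusp1*).

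**Figure D4:**
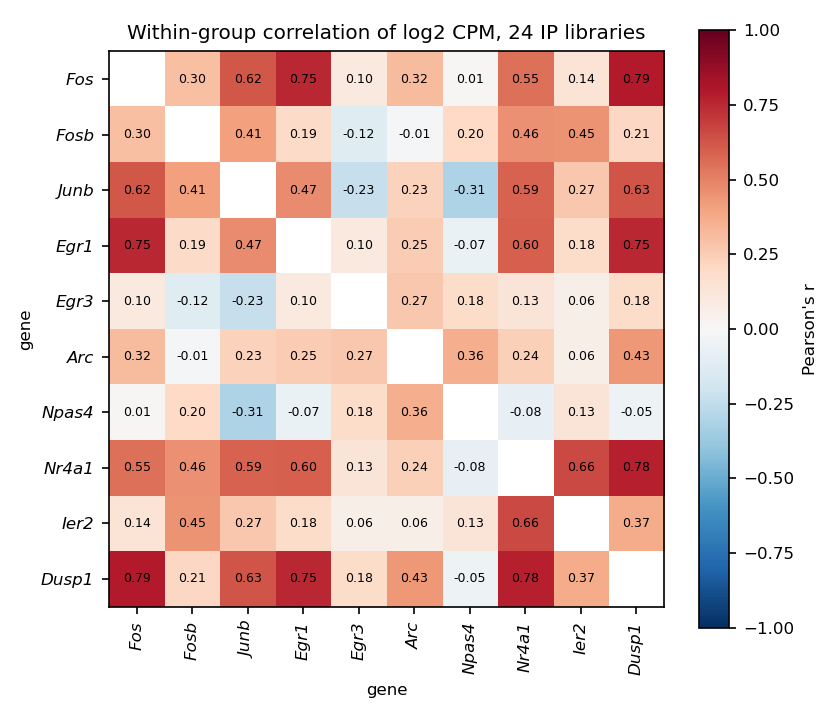
Pearson correlation of log2 CPM between each pair of the 10 genes over 24 IP libraries, after the group means were taken off, with genes on both axes and the colour and number giving the correlation. *Fos*, *Junb*, *Egr1*, *Nr4a1* and *Dusp1* form a block from 0.47 to 0.79, and *Npas4* and *Egr3* run from -0.31 to 0.36 against all others.

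Some libraries lay low or high across the genes. In *ChAT-BKO* replicate 4 at ZT8 each of the 10 genes was below its group mean, with *Fos* at 9.11 CPM and *Dusp1* at 11.4 CPM, and the summed muscle markers there were 178 CPM, the highest of all 24 libraries. In control replicate 1 at ZT8, 8 of the 10 genes were above their group mean, with *Junb* at 43 CPM and *Nr4a1* at 10.3 CPM, and the summed muscle markers were 1.68 CPM, the lowest of all libraries. The next highest muscle sums were in control replicate 2 at ZT8 (111 CPM) and *ChAT-BKO* replicates 6, 3 and 1 at ZT20 (107, 101 and 100 CPM). There 5, 5, 7 and 4 of the 10 genes, in that order, were above their group mean. As many as 8 were also above it in *ChAT-BKO* replicates 2, 3 and 6 at ZT8 (muscle sums 6, 3.49 and 5.74 CPM). In control replicate 3 at ZT20 (13.3 CPM) 9 were above it. Only 1 was above it in control replicate 3 at ZT8 (47.3 CPM) and in *ChAT-BKO* replicate 2 at ZT20 (51.1 CPM). Whether the muscle transcripts have a part in the levels of the 10 genes was not tested. Without *ChAT-BKO* replicate 4 at ZT8 the night-to-day log2 fold change of *Fos* in *ChAT-BKO* neurons was 0.76 (adjusted p = 0.00632 by edgeR). Correlations of the 10 genes with log2 library depth were between -0.19 and 0.26.

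Among 10348 genes with a mean of at least 5 CPM and outside the lists, those most like the mean of the 10 genes in this within-group pattern were *Rsrp1* (correlation 0.77, n = 24 libraries), *Sgk1*, the serum and glucocorticoid regulated kinase (0.72), *Tram1* (0.69), *Tulp3* (0.66) and *Mphosph9* (0.66). Those most like *Fos* alone were *Snn* (0.73), *Dynlt3* (0.71), *Khdc4* (0.70), *Fth1*, the ferritin heavy chain (0.69), and *Mdm2* (0.68). Without the 2 libraries in which the mean of the 10 genes, or *Fos* for its own list, lay farthest from its median, these 10 correlations were between 0.48 and 0.75.

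Further activity-response genes were taken as lists. Of 29 other immediate early genes, averaged night against day was called higher for 2 and lower for 1, against 2.62% of all genes called (358 higher and 212 lower), with a list median of 0.11. *Dusp4*, another MAP kinase phosphatase, rose by 0.58 (SE 0.14, adjusted p = 0.0208 by edgeR) and *Jun*, the partner of *Fos* in AP-1, by 0.14 (SE 0.04, adjusted p = 0.0357 by edgeR). *Gadd45b*, a stress and DNA demethylation factor, fell, with a log2 change of -0.28 (SE 0.08, adjusted p = 0.0403 by edgeR). *Dusp4* had medians of 2.29 and 1.93 CPM in controls and *ChAT-BKO* neurons at ZT8 and 2.77 and 3.54 CPM at ZT20, and *Jun* of 137 and 142 CPM at ZT8 and 157 and 156 CPM at ZT20. *Gadd45b* had medians of 31 and 29.6 CPM at ZT8 and 25.9 and 23.6 CPM at ZT20.

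Of 12 late activity-response genes, 3 were called, all higher at night, against the same 2.62% of all genes, and the list median was 0.08. *Rgs2*, a regulator of G protein signalling, rose by 0.27 (SE 0.05, adjusted p = 0.00235 by edgeR), *Pcsk1*, a prohormone convertase, by 0.33 (SE 0.07, adjusted p = 0.00757 by edgeR), and *Bdnf*, a neurotrophin, by 0.47 (SE 0.11, adjusted p = 0.021 by edgeR). *Bdnf* had medians of 4.07 and 3.91 CPM in controls and *ChAT-BKO* neurons at ZT8 and 6.23 and 5.24 CPM at ZT20. *Rgs2* had medians of 48.2 and 49.8 CPM at ZT8 and 57.5 and 60.2 CPM at ZT20, and *Pcsk1* of 11.1 and 10.1 CPM at ZT8 and 13.1 and 13.2 CPM at ZT20. Of 18 upstream signalling genes 1 was called, against 2.62% of all genes, namely *Crtc2*, a CREB coactivator, which rose by 0.24 (SE 0.05, adjusted p = 0.0102 by edgeR). Its medians were 14.1 and 14.3 CPM at ZT8 and 16.9 and 16.2 CPM at ZT20, and the list median was -0.00. In the other 6 comparisons edgeR called 0 genes of these 3 lists.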

How the data were processed

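Messenger RNA on HA-tagged ribosomes of spinal cord cholinergic neurons was sequenced as 24 IP libraries beside 1 pooled input. According to the submitters' processing notes, the authors aligned reads to mm10 with STAR 2.7.5, and RSEM gave the deposited values, which are expected counts per gene with no normalization. Their own DESeq2 1.32.0 results were not used here. Non-integer values (6.11%) were rounded. Groups and replicate numbers came from the sample labels.

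Genes with at least 10 counts over the 24 IP libraries (21738) were tested in R 4.3.3 with edgeR 4.0.16, by TMM and the quasi-likelihood F test with Benjamini-Hochberg adjustment, and an adjusted p under 0.05 was called. The 4 comparisons of a pair of groups used their own 12 libraries, and the difference and both averages used all 24. Adjusted p-values cover all genes tested. All members of the main list were named, and from the other lists every gene called. The genes, lists and tests were chosen with earlier results of these data known. Alternatives were DESeq2 1.42.0, its size factors in edgeR, no filter, filterByExpr, limma 3.58.1 voom with sample weights, the replicate number as a block, 1 fit over all 24 libraries, leaving out each library, and total-count scaling for the input. Muscle markers, blood markers and a transcript length slope per library (log2 CPM on log2 length) as covariates were chosen after seeing the data. The scripts were tested on simulated data. Depth was 4.04 to 31.7 M counts, so precision was lowest for genes of few counts. Gene positions and promoters are those of GRCm38.p6. Separate mice are separate samples.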

Additional observations from a re-analysis of the deposited data

Results flagged for a closer look

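In 3 of 40 sets of 6 libraries (10 genes in 4 groups), 1 library stood apart from the other 5 by Dixon's test at the 95% level, and chance gives about 1 in 20 such sets. *Junb* was at 43 CPM in control replicate 1 at ZT8, the highest of its group, with the other 5 between 29.3 and 31.6 CPM. *Egr1* was at 8.06 CPM in control replicate 2 at ZT20, the lowest of its group, with the other 5 between 12.2 and 14.2 CPM. *Egr3* was at 0.758 CPM (8 counts) in control replicate 6 at ZT8, the highest of its group, with the other 5 between 0.129 and 0.291 CPM.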

How the results depend on the processing

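Of 683 values of the 10 genes recomputed without leaving out single libraries, 642 kept their direction and their side of the threshold (for ratios to the input, moved by under 1 SD). Of 1200 recomputed with 1 library left out, 1126 did, 66 changed sign, 6 lost the call (*Fos* at night in *ChAT-BKO* neurons) and 2 gained one (*Fos* at ZT20). In the main fits only *Fos* was called, for night against day in *ChAT-BKO* neurons and averaged. For most values, keeping the side of the threshold therefore means only that no call appeared. The averaged night-to-day call of *Fos* remained in every alternative run, with log2 fold changes from 0.66 to 0.79 and, with 1 library left out, from 0.59 to 0.73. For night against day in *ChAT-BKO* neurons, the number of genes called, 1, was 0 with limma voom (*Fos* adjusted p = 0.0502) and with the blood covariate (0.469), and 0 to 1 with 1 library left out. At ZT20 between genotypes, the number called, 0, was 1 (*Fos*) with DESeq2 (adjusted p = 0.00726), with no filter (0.0171), with the replicate block (0.00626) and with the length covariate (0.00504), and 0 to 1 with 1 library left out. In controls it was 1 (*Fos*) with the block (0.0282) and with the length covariate (0.0231). The cause of these changes was not tested.

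Replicate numbers mark no shared litter or day in the labels. Taken over all pairs of groups, same-numbered libraries did not deviate together, with 13 of 36 correlations over 0.1 (-0.47 to 0.59, median -0.02). Only 4 of 24 libraries were closest to their own number. Pairs of groups differed in this. For controls at ZT8 against ZT20 the correlations of replicates 1 to 6 were -0.07, 0.59, 0.18, 0.03, 0.16 and 0.39. For *ChAT-BKO* they were -0.37, 0.06, -0.34, 0.33, -0.29 and -0.13. As a block, the replicate number moved the genes called in all from 25 to 86 in controls, from 62 to 47 in *ChAT-BKO* neurons, from 40 to 69 at ZT8, from 50 to 61 at ZT20 and from 570 to 480 averaged.

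Values that changed sign were of genes not called. With blood as a covariate they were *Junb* (0.03) and *Ier2* (-0.18) in controls, *Fosb* (0.13) in *ChAT-BKO* neurons, *Fosb* at ZT20 (0.00) and the averaged *Ier2* (-0.10). With muscle they were *Fosb* in *ChAT-BKO* neurons (0.11), *Fos* (-0.10) and *Nr4a1* (-0.02) at ZT8, *Egr1* at ZT20 (0.07), and the differences of *Npas4* (-0.00) and *Nr4a1* (0.35). With the length covariate they were *Fosb* (0.02) and *Egr3* (-0.21) at ZT20 and the genotype average of *Egr3* (-0.01). With the block they were *Fos* at ZT8 (-0.02) and *Fosb* (0.01) and *Egr3* (-0.04) at ZT20. With limma voom they were *Nr4a1* at night in *ChAT-BKO* neurons (-0.02), *Ier2* at ZT8 (0.00), *Fosb* (0.01) and *Nr4a1* (-0.08) at ZT20 and the genotype average of *Dusp1* (-0.00). *Ier2* in controls was -0.00 with DESeq2's size factors and -0.01 with filterByExpr, and *Fosb* at ZT20 was 0.00 and 0.01 with these and 0.01 with all 24 libraries.

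With 1 library left out, night against day ran from -0.12 to 0.01 for *Junb* and -0.07 to 0.12 for *Ier2* in controls, and from -0.20 to 0.01 for *Fosb* and -0.08 to 0.18 for *Nr4a1* in *ChAT-BKO* neurons. Between genotypes at ZT8 it ran from -0.07 to 0.20 for *Fos*, -0.01 to 0.73 for *Egr3*, -0.01 to 0.32 for *Nr4a1*, -0.10 to 0.09 for *Ier2* and -0.19 to 0.08 for *Dusp1*. At ZT20 it ran from -0.06 to 0.06 for *Fosb*, -0.15 to 0.03 for *Egr1*, -0.06 to 0.31 for *Egr3* and -0.14 to 0.12 for *Nr4a1*. The difference of effects ran from -0.59 to 0.15 for *Egr3*, -0.09 to 0.34 for *Npas4*, -0.31 to 0.04 for *Nr4a1* and -0.02 to 0.19 for *Ier2*, and the genotype average from -0.02 to 0.16 for *Nr4a1*, -0.01 to 0.08 for *Ier2* and -0.01 to 0.12 for *Dusp1*.

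Genes called in all varied more. For night against day in controls (25) they were 127 with DESeq2, 2 with blood and 354 with length as a covariate, and in *ChAT-BKO* neurons (62) 225, 5 and 501, and 140 with all 24 libraries or 40 with muscle as a covariate. At ZT8 (40) DESeq2 called 70 and the length covariate 162. At ZT20 (50) DESeq2 called 91, length 171 and muscle 16. Averaged night against day (570) gave 872 with DESeq2, 240 with blood and 1522 with length, the genotype average (142) gave 225 with DESeq2 and 410 with length, and the difference (0) gave 1 with length. With total counts in place of TMM the log2 ratios to the input were -0.10 for *Fosb*, 1.11 for *Junb*, -1.91 for *Egr1*, -1.93 for *Arc*, 0.96 for *Ier2* and 0.43 for *Dusp1*. Depth limits *Egr3* (1 to 13 counts) and *Npas4* (4 to 39 counts) most.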
